A study of Mus musculus with 8 samples.

Results

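Genes whose products make collagen fit to be folded, secreted and tied together were followed from the embryonic notochord to the newborn nucleus pulposus (NP). They are the prolyl 4-hydroxylase subunit genes P4ha1 and P4ha2, the lysyl hydroxylase genes Plod1, Plod2 and Plod3, the collagen chaperone gene Serpinh1, and the lysyl oxidase genes Lox, Loxl1, Loxl2 and Loxl3. They were chosen by name for their known roles, with earlier results of these data known, and are 10 of the 43346 gene identifiers counted. The plainest results were a 4.22-fold higher abundance of Lox at P0 compared to E12.5, seen in every litter, and a 2.29-fold lower abundance of Serpinh1, which lost its call in 4 of 8 fits that left out 1 litter. The other 8 members did not pass the test.

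Collagen chains are modified while they are still being made in the endoplasmic reticulum. Prolyl 4-hydroxylases add the hydroxyl groups that keep the triple helix stable at body temperature, and lysyl hydroxylases prepare lysines for sugar attachment and for later crosslinks. HSP47, the product of Serpinh1, binds the folded procollagen helix until it leaves the endoplasmic reticulum. Outside the cell, lysyl oxidases oxidize lysines and hydroxylysines of collagen and elastin so that neighbouring molecules crosslink. The notochord is wrapped in a collagen-rich sheath, and the NP that forms from it is a proteoglycan-rich gel with a collagen network.

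Total RNA of notochord-derived cells (NDCs) was sequenced from Shh-cre;ROSA:YFP mice, 4 litters at embryonic day 12.5 (E12.5) and 4 at birth (P0), the animals of each litter being pooled. All 8 samples carried the same alleles, a Cre recombinase expressed where the sonic hedgehog gene Shh is active and a YFP reporter that stays on in those cells and their descendants, and no treatment is named. Shh is also active in other embryonic tissues, such as the floor plate of the neural tube. At E12.5 whole notochords were cleaned of adjoining tissue and frozen without sorting. At P0 cells were shaken out of bisected thoracic and lumbar discs and sorted for YFP, so stage and isolation cannot be told apart. The litters were NDP10.2, NPD3, NPD4 and NPD9.2 at E12.5 and NPD26, NPD27, NPD28 and NPD30 at P0, and values are listed in that order throughout. Abundance is in CPM, the count of a gene scaled to the size of its library. Each log2 fold change sets P0 against E12.5, positive where P0 was higher, and comes with its standard error (SE) from edgeR's quasi-likelihood test with Benjamini-Hochberg adjustment over all tested genes. An adjusted p under 0.05 is called a pass. In such pooled tissue, fewer cells of a type and less RNA per cell cannot be told apart.

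Between 4442775 and 8904050 reads per litter were counted on genes, and 15467 genes had enough counts to be tested, the 10 members among them. Of the notochord and NP markers listed, T (brachyury) was present in every litter, at 242 to 942 CPM at E12.5 and 574 to 2323 CPM at P0. Noto was at 0 in 3 E12.5 and 2 P0 litters and near 0 in the rest. Of the 11 markers 10 were tested and 5 passed, 2 as lower and 3 as higher at P0. The lower ones were Shh (log2 fold change -7.14, adjusted p = 0.000742) and Foxa1 (-2.23, adjusted p = 0.00682). Every E12.5 litter held at least 420 CPM of Shh, and no P0 litter exceeded 11.8 CPM. The higher ones were Krt19 (1.74, adjusted p = 0.0267), Cd24a (1.33, adjusted p = 0.0224) and Car3 (2.97, adjusted p = 0.00458). Markers of other cells differed between the stages. The sum of 14 leukocyte markers was 73.2 to 151 CPM at E12.5 and 1011 to 8925 CPM at P0, where NPD30 was lowest and all 14 passed the test as higher. The sum of 9 osteoblast markers was 32.0 to 253 CPM at E12.5, with Bglap2 and Dmp1 at 0 in every E12.5 litter, and 1092 to 1880 CPM at P0. All 7 osteoblast markers that were tested passed as higher at P0, with a median log2 fold change of 4.31. Sclerotome is the tissue around the notochord, and all 7 of its markers passed as lower at P0, as did 5 of 5 skeletal muscle and 6 of 9 erythroid markers. Of 10 tested early genes that dissociation is known to induce, 5 passed as higher at P0, where cells were shaken apart and sorted, and their list of 11 summed to 182 to 460 CPM at E12.5 and 653 to 1180 CPM at P0. The E12.5 litters NDP10.2 and NPD9.2 stood apart, with 16.3% and 17.5% of reads ambiguous between genes against 7.07% to 11.6% in the other litters and erythroid sums of 24870 and 49400 CPM against 10140 and 10500 CPM in NPD3 and NPD4.

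Among all tested genes 27.9% passed in either direction, 16.0% as higher and 12.0% as lower at P0. Of the members 2 of 10 passed, 1 in each direction. In 29.9% of tested genes the litters of the stages did not overlap, and among the members this held for Lox alone, 1 of 10. The median log2 fold change was -0.21 over the members, 5 of which lay above 0 and 5 below, and 0.04 over all tested genes. The count of members that passed was thus no higher than that background, and signs differed within families.

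**Figure D1:**
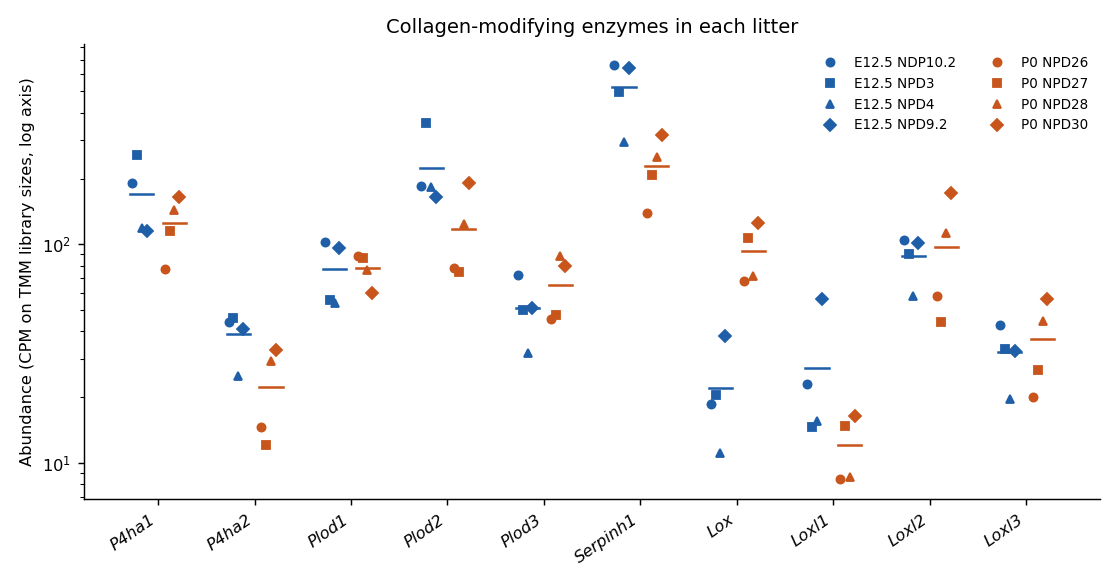
Abundance of the 10 members in each litter (CPM, log axis), with a symbol for each litter, blue for E12.5 and orange for P0, and a bar for the stage mean. Lox is the gene whose P0 litters, 67.9 to 125 CPM, all lie above its E12.5 litters, 11.1 to 38.1 CPM.

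P4ha1 (ENSMUSG00000019916.10, GRCm38 chromosome 10 from 59323296 to 59373304) encodes the main catalytic subunit and had 190, 257, 119 and 115 CPM at E12.5 and 76.9, 115, 144 and 165 CPM at P0. The stages overlapped, with NPD3 the highest and NPD26 the lowest of all litters. The stage difference was a log2 fold change of -0.44 (SE 0.33, 95% interval -1.16 to 0.28, adjusted p = 0.351). P4ha2 (ENSMUSG00000018906.10, chromosome 11 from 54100095 to 54131665), the other catalytic subunit measured here as a member, had 44.4, 46.1, 24.9 and 40.8 CPM at E12.5 and 14.6, 12.1, 29.2 and 32.8 CPM at P0. The P0 litters NPD28 and NPD30 lay inside the E12.5 range, above NPD4, and NPD26 and NPD27 lay beneath it. A log2 fold change of -0.81 (SE 0.35, 95% interval -1.59 to -0.03, adjusted p = 0.112) missed the threshold, and with 1 litter left out it ranged from -1.10 to -0.60, passing without NPD30 alone (-1.10, adjusted p = 0.0393).

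Within the family, abundance was compared per kilobase of exon, so that long and short transcripts can be set side by side. P4ha1 made up 86.2% ± 3.69 of the summed CPM per kb of the pair at E12.5 and 89.8% ± 2.53 at P0 (SD, n = 4 litters). The pair leaves out P4ha3, a further catalytic subunit gene that is not a member. P4ha3 had 57.6, 43.3, 15.5 and 28.5 CPM at E12.5 and 46.55, 43.8, 133 and 167 CPM at P0, above P4ha2 in every P0 litter. The shares are therefore not those of all catalytic subunits. The log2 ratio of P4ha2 to P4ha1 counts was -2.08 ± 0.42 at E12.5 and -2.57 ± 0.45 at P0, a difference of -0.49 that a two-sided exact permutation test did not separate (p = 0.2, adjusted p = 0.24 over the 6 ratios tested). P4hb, the disulfide isomerase that forms the other subunit of the enzyme, averaged 561 ± 159 CPM and 502 ± 73.2 CPM (log2 fold change -0.16, adjusted p = 0.712) and was named after its values were seen.

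Both P4ha genes are known targets of the hypoxia-inducible factors, and the NP lacks blood vessels, so their promoters are shown with the core letters those factors bind. Each runs 5′ to 3′ on the gene's strand from 250 bases before the RefSeq start to 50 after it, on GRCm38.p6. P4ha1 lies at chr10:59323046-59323345 and P4ha2 at chr11:54100674-54100973, both on the plus strand. Each window follows 1 start of its gene, and its end was found in 1 of 3 P4ha1 and 1 of 15 P4ha2 transcripts. Other starts were not searched. Capitals mark ACGTG or GCGTG on either strand (read as CACGT or CACGC where the match is on the opposite strand), and overlapping matches were allowed.
P4ha1: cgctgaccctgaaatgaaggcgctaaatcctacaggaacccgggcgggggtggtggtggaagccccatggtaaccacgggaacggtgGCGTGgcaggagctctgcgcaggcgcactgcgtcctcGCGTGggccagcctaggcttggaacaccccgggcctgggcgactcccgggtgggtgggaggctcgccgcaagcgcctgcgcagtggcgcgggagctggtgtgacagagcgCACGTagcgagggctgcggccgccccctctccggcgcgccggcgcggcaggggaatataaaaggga
P4ha2: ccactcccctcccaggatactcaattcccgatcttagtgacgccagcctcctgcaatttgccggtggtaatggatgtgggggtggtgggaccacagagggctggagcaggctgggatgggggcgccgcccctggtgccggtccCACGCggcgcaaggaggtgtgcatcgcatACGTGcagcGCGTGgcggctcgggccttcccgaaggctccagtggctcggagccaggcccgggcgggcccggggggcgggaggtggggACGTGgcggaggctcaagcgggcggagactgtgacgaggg
P4ha1 held 3 matches, the nearest 16 bases before the start, and P4ha2 held 4, at 107, 78 and 69 bases before the start and 10 after it. Either core occurred in 44.0% of the 32544 promoters of the same length, ACGTG in 19.7% and GCGTG in 32.6%, so a match in these letters is common. Plod1 and Plod3, the other hydroxylases with a promoter in that collection, held 2 and 4. Plod2, Lox, Loxl1, Loxl2 and Loxl3 had no promoter there and were not searched. Of 15 listed hypoxia target genes 14 were tested, and 4 passed, against 27.9% of all tested genes, each of them higher at P0: Car9, the membrane carbonic anhydrase, with a log2 fold change of 2.62 (adjusted p = 0.0101), the stress-response gene Ndrg1 with 1.87 (adjusted p = 0.00372), the oxygen sensor Egln3 with 1.28 (adjusted p = 0.0252) and the glycolytic regulator Pfkfb3 with 0.97 (adjusted p = 0.00749). Their median over 14 genes was 0.35. Egln3 lost its pass without any 1 of the E12.5 litters or NPD30, at 0.75 to 1.31 on the log2 scale. Both P4ha genes had negative log2 fold changes and did not pass.

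None of the 3 lysyl hydroxylase genes passed the test. Plod2 (ENSMUSG00000032374.10, chromosome 9 from 92542223 to 92608428), which hydroxylates lysines in the telopeptides where crosslinks form, had 185, 358, 184 and 164 CPM at E12.5 and 78.3, 74.7, 124 and 191 CPM at P0. At E12.5 NPD3 stood far above its stage, and at P0 NPD30 reached the E12.5 range while the other P0 litters lay beneath it. Plod2 had a log2 fold change, P0 to E12.5, of -0.93 (SE 0.36, 95% interval -1.73 to -0.12, adjusted p = 0.0814). Without NPD30 it was -1.31 and passed (adjusted p = 0.0126), and without NPD3 it was -0.64 and did not (adjusted p = 0.224).

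Plod1 (ENSMUSG00000019055.11, chromosome 4 from 147909753 to 147936767), a hydroxylase of helical lysines, had 102, 55.6, 53.9 and 96.4 CPM at E12.5 and 88.2, 87.0, 76.6 and 60.2 CPM at P0. Its P0 litters all lay within the E12.5 range, and its log2 fold change was 0.02 (SE 0.27, 95% interval -0.58 to 0.62, adjusted p = 0.968). Plod3 (ENSMUSG00000004846.6, chromosome 5 from 136987019 to 136996648), whose product also attaches sugars to hydroxylysine, had 72.4, 50.3, 31.8 and 51.2 CPM at E12.5 and 45.8, 47.6, 88.5 and 79.6 CPM at P0. NPD28 and NPD30 exceeded every E12.5 litter and the other two P0 litters did not. For Plod3 the log2 fold change was 0.35 (SE 0.31, 95% interval -0.34 to 1.04, adjusted p = 0.444). The exons of Plod3 share 529 bases with Znhit1 on the opposite strand, 11.7% of the Plod3 exon length, and those of Plod2 share 346 bases with Gm38391. The strand setting of the count is not given in the sources used here, so reads from such stretches cannot be told apart.

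As parts of the summed CPM per kb of the 3 genes, Plod2 held 63.4% ± 12.1 at E12.5 and 43.9% ± 9.17 at P0, with the litters overlapping. Plod3 held 18.0% ± 5.34, from 13.0% to 24.5%, at E12.5 and 30.0% ± 4.30, from 26.9% to 36.4%, at P0, without overlap. Plod1 held 18.6% ± 7.17 and 26.1% ± 10.1. The shares were not tested. A share also depends on the other genes of the sum, and in CPM the Plod3 litters of the stages overlapped. The log2 ratio of Plod2 to Plod1 counts was 1.52 ± 0.90 at E12.5 and 0.49 ± 0.89 at P0, a difference of -1.03 by the two-sided exact permutation test (p = 0.114, adjusted p = 0.171), and that of Plod3 to Plod1 was -0.58 ± 0.34 and -0.30 ± 0.71 (exact p = 0.543, adjusted p = 0.543).

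Serpinh1 (ENSMUSG00000070436.7, chromosome 7 from 99345376 to 99353239) was the most abundant member per kilobase at both stages and the one that passed as lower at P0. It had 663, 496, 293 and 639 CPM at E12.5 and 139, 207, 251 and 316 CPM at P0. The stages met at the E12.5 litter NPD4, which lay beneath the P0 litter NPD30, and the other E12.5 litters lay above every P0 litter. The means were 523 ± 170 and 228 ± 74.6 CPM (SD, n = 4 litters), and the log2 fold change was -1.19 (SE 0.34, 95% interval -1.94 to -0.45, adjusted p = 0.0222). Of all tested genes 12.4% had a more negative value. The pass was lost without NDP10.2, NPD9.2, NPD26 or NPD27, at -1.10, -1.12, -1.01 and -1.14 on the log2 scale and an adjusted p of up to 0.0585, and without both NDP10.2 and NPD9.2 the value was -0.83 (adjusted p = 0.189). The summed skeletal muscle markers were 1618, 1318, 577 and 2379 CPM at E12.5 and 16.5 to 72.1 CPM at P0. The sclerotome markers were 198, 222, 159 and 224 CPM at E12.5 and 14.7 to 29.4 CPM at P0. Both sums were lowest at E12.5 in NPD4, as were the notochord and NP markers and 7 of the 10 members, Serpinh1 among them. The part of muscle and sclerotome cells in the Serpinh1 difference was not tested.

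The Serpinh1 promoter is shown because heat shock elements are the best known control of this gene. It lies at chr7:99353190-99353489 on the minus strand of GRCm38.p6, in the same window and reading direction as the hydroxylase promoters, and its capitals mark the lone hypoxia core, 171 bases before the start on the opposite strand.
Serpinh1: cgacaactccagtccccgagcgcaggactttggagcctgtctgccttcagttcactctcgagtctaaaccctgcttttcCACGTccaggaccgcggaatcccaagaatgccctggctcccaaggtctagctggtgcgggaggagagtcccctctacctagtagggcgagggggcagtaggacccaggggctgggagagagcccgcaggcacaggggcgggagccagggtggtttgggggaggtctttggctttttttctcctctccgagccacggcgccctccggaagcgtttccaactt
The heat shock element GAANNTTC, the same on both strands, was not found in this window, and it was found in 7.89% of all promoters of that length. The end of the window was found in 1 of 7 Serpinh1 transcripts, and other starts or more distant sequence were not searched. Among the other 4 member promoters Plod1 held 1. The heat shock gene Hspa1b, of the dissociation list, passed as higher at P0 (log2 fold change 3.15, adjusted p = 0.0163). It was low at E12.5, at 2.12, 1.17, 0.73 and 4.92 CPM. At P0 it had 2.67, 28.3, 11.2 and 34.6 CPM, with NPD26 inside the E12.5 range. The part of dissociation in the Serpinh1 difference was not tested.

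Per kilobase, Serpinh1 averaged 214 CPM per kb at E12.5 and 93.5 at P0, and its litters did not overlap those of P4ha1, the next in order, at either stage. Over all 8 litters, 0.995% of the tested genes with an exon length had a higher level. At E12.5 P4ha1 and Plod2 followed at 41.4 and 41.3 CPM per kb, both apart from Loxl2 at 16.4. Beyond that, Plod1 and Plod3 at 11.4 each, Loxl1 at 8.28, Loxl3 at 6.98, P4ha2 at 6.26 and Lox at 4.62 overlapped each with its neighbour. At P0 P4ha1 at 30.5, Plod2 at 21.7, Lox at 19.4, Loxl2 at 17.9, Plod3 at 14.5, Plod1 at 11.5, Loxl3 at 8.01, Loxl1 at 3.66 and P4ha2 at 3.55 formed an order in which every neighbour overlapped. Lox moved from the lowest place of the 10 at E12.5 to the fourth at P0.

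**Figure D2:**
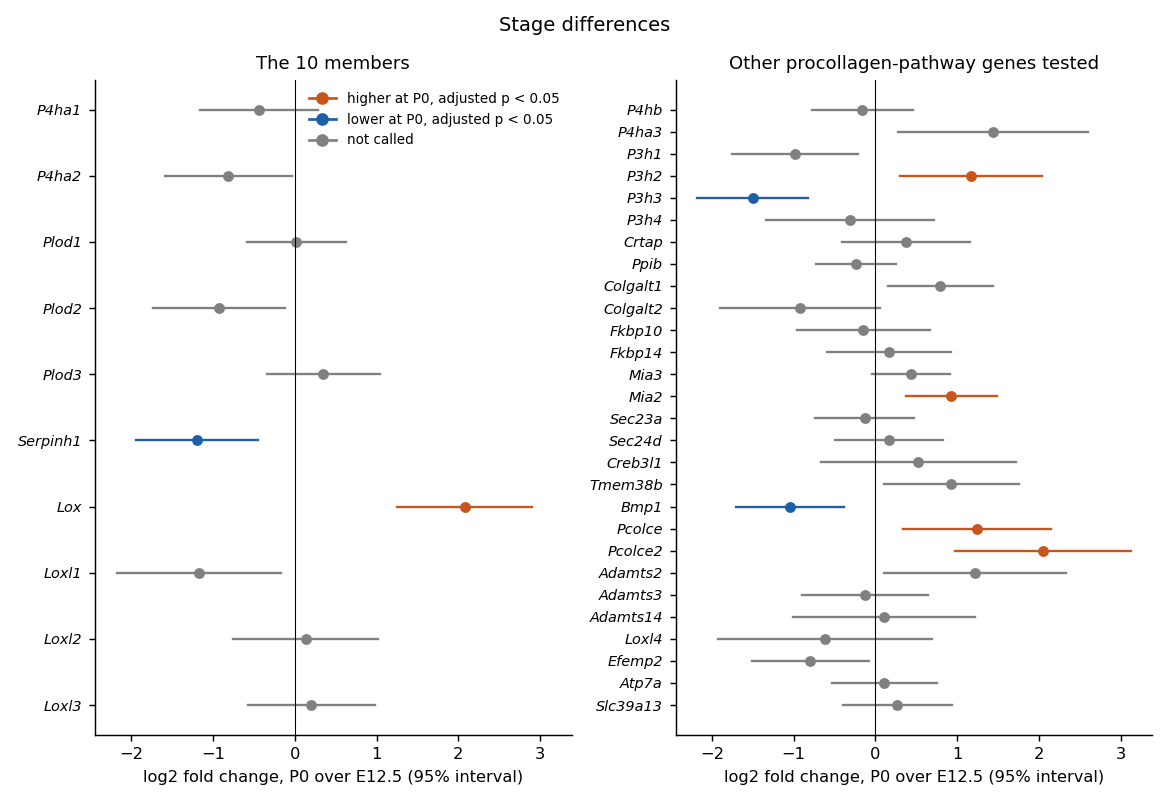
Log2 fold change of each gene, P0 over E12.5, with its 95% interval, for the 10 members on the left and 28 other tested genes of the procollagen pathway on the right; orange marks a pass as higher at P0, blue a pass as lower, grey no pass. Lox at 2.08 and Serpinh1 at -1.19 are the members whose adjusted p passed.

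Lox (ENSMUSG00000024529.9, chromosome 18 from 52516067 to 52529867) encodes the founding lysyl oxidase, which crosslinks collagen and elastin. It had 18.6, 20.5, 11.1 and 38.1 CPM at E12.5 and 67.9, 107, 71.8 and 125 CPM at P0. Every P0 litter lay above every E12.5 litter, and the closest were NPD9.2 and NPD26. The means were 22.1 ± 11.4 and 92.8 ± 27.5 CPM (SD, n = 4 litters), and the log2 fold change was 2.08 (SE 0.38, 95% interval 1.25 to 2.90, adjusted p = 0.00252). Lox passed whichever of the 8 litters was left out, at 1.84 to 2.44 on the log2 scale, and without both NDP10.2 and NPD9.2 it stood at 2.52 (adjusted p = 0.0136). Of all tested genes, 8.36% had a larger log2 fold change. In the P0 litters the leukocyte markers summed to 4024, 4843, 8925 and 1011 CPM, and Lox was highest in NPD30, where they were lowest. The osteoblast markers summed to 1092, 1211, 1114 and 1880 CPM. Most of that was Spp1, at 764, 692, 737 and 1207 CPM, which also averaged 134 CPM at E12.5. Other osteoblast markers were nearly absent at the earlier stage. Ibsp reached 245.5, 389, 262 and 526 CPM in the P0 litters, and no E12.5 litter held more than 0.39 CPM of it. Sp7 lay between 26.6 and 49.4 CPM in the P0 litters and did not exceed 1.95 CPM in any E12.5 litter. The osteoblast sum was highest in NPD30, as were the notochord and NP markers and 8 of the 10 members, Lox among them. The tendon and annulus fibroblast markers summed to 480, 424, 1049 and 1459 CPM, but nearly all of that was Fmod, at 456, 403, 1029 and 1415 CPM. Fmod passed as higher at P0 (log2 fold change 2.36, adjusted p = 0.00898), and Scx, the defining tendon factor of that list, as lower (-1.31, adjusted p = 0.0186). Mkx (1.12, adjusted p = 0.121) and Thbs4 (-1.67, adjusted p = 0.130) did not pass. Mkx had 15.9, 9.37, 13.9 and 32.0 CPM at P0. Tnmd, Kera and Dpt stayed at 2.43 CPM or less in every P0 litter. The P0 cells had been sorted for YFP, and all these P0 marker values were measured after that sort. The part of osteoblast RNA in the Lox difference was not tested.

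None of the 3 relatives of Lox passed the test. Loxl1 (ENSMUSG00000032334.9, chromosome 9 from 58287738 to 58313186), known for elastic fibre upkeep, had 22.9, 14.6, 15.6 and 56.1 CPM at E12.5 and 8.49, 14.9, 8.59 and 16.4 CPM at P0. NPD9.2 stood high at E12.5, and NPD27 and NPD30 overlapped the E12.5 litters NPD3 and NPD4. Loxl1 had a log2 fold change of -1.17 (SE 0.46, 95% interval -2.18 to -0.16, adjusted p = 0.0796). With 1 litter left out it ranged from -1.42 to -0.58, the last without NPD9.2 (adjusted p = 0.281), and it passed without NPD4 alone (-1.37, adjusted p = 0.0473). Without both NDP10.2 and NPD9.2 it was -0.36 (adjusted p = 0.558). DESeq2's Wald test (-1.18, adjusted p = 0.0492) and the fit with no filter on low counts (-1.15, adjusted p = 0.0195) called it.

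Loxl2 (ENSMUSG00000034205.12, chromosome 14 from 69609068 to 69695834), a crosslinker of basement membrane collagen, had 104, 90.5, 57.9 and 102 CPM at E12.5 and 58.2, 44.1, 113 and 172 CPM at P0. Its P0 litters spread from beneath the E12.5 range to above it. Its log2 fold change was 0.13 (SE 0.40, 95% interval -0.76 to 1.02, adjusted p = 0.843), with a sign that depended on the setting and was -0.34 without NPD30. Loxl3 (ENSMUSG00000000693.6, chromosome 6 from 83034173 to 83052562), needed for the palate and spine in mice, had 42.7, 33.4, 19.7 and 32.7 CPM at E12.5 and 20.1, 26.5, 44.7 and 56.1 CPM at P0. Again NPD28 and NPD30 lay above every E12.5 litter and NPD26 and NPD27 inside their range. Its log2 fold change was 0.20 (SE 0.35, 95% interval -0.57 to 0.98, adjusted p = 0.710). Loxl3 exons share 535 bases, 11.6%, with Htra2 on the opposite strand, and Loxl2 exons share 301 bases with Gm27177.

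Because a ratio of 2 genes within a library does not depend on its size, the relatives were also set against Lox directly. The log2 ratio of Loxl1 to Lox counts was 0.30, -0.49, 0.49 and 0.56 at E12.5 and -3.00, -2.84, -3.06 and -2.93 at P0. The P0 litters agreed to within an SD of 0.09, and the means of 0.21 and -2.96 differ by 9.02-fold. For Loxl2 to Lox the log2 ratios were 2.49, 2.14, 2.38 and 1.41 at E12.5 and -0.22, -1.27, 0.66 and 0.47 at P0, a 4.59-fold difference between the means. For Loxl3 to Lox they were 1.20, 0.70, 0.83 and -0.22 at E12.5 and -1.75, -2.01, -0.68 and -1.15 at P0, a 4.07-fold difference. In each of these pairs every P0 litter lay beneath every E12.5 litter. Each gave p = 0.0286 in the two-sided exact permutation test, the smallest that 4 against 4 litters allow, and 0.0571 after adjustment over the 6 ratios, which did not pass 0.05. All 3 ratios share Lox, itself higher in every P0 litter, so they are not independent of each other or of that result. Loxl2 and Loxl3 themselves had log2 fold changes of 0.13 and 0.20. How many of all tested genes separate in the same way against Lox was not counted.

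In the summed CPM per kb of the 4 lysyl oxidase genes, Lox held 9.89%, 13.1%, 10.6% and 15.7% at E12.5 and 44.5%, 54.8%, 31.1% and 34.7% at P0. Its share thus averaged 12.3% ± 2.64 and 41.3% ± 10.6, and the litters of the stages did not overlap. Loxl1 held 21.5% ± 8.57 and 7.78% ± 2.44, also without overlap. Loxl2 held 46.4% ± 6.43 and 34.9% ± 10.8 and Loxl3 19.8% ± 4.22 and 16.0% ± 2.94, both with overlap. Among these 4 genes the largest share thus belonged to Loxl2 in every E12.5 litter and to Lox in the P0 litters NPD26 and NPD27, with Loxl2 still ahead in NPD28 and NPD30. The total of the 4 was 36.3 ± 12.1 CPM per kb at E12.5 and 49.0 ± 18.7 at P0. Loxl4, the remaining gene of the family, was named after its values were seen and had 66.0 ± 36.0 and 42.9 ± 31.2 CPM (log2 fold change -0.62, adjusted p = 0.473). By litter it had 94.1, 99.3, 28.2 and 42.5 CPM at E12.5 and 17.5, 15.7, 77.7 and 60.95 CPM at P0. The shares leave it out and are therefore not those of the whole family.

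**Figure D3:**
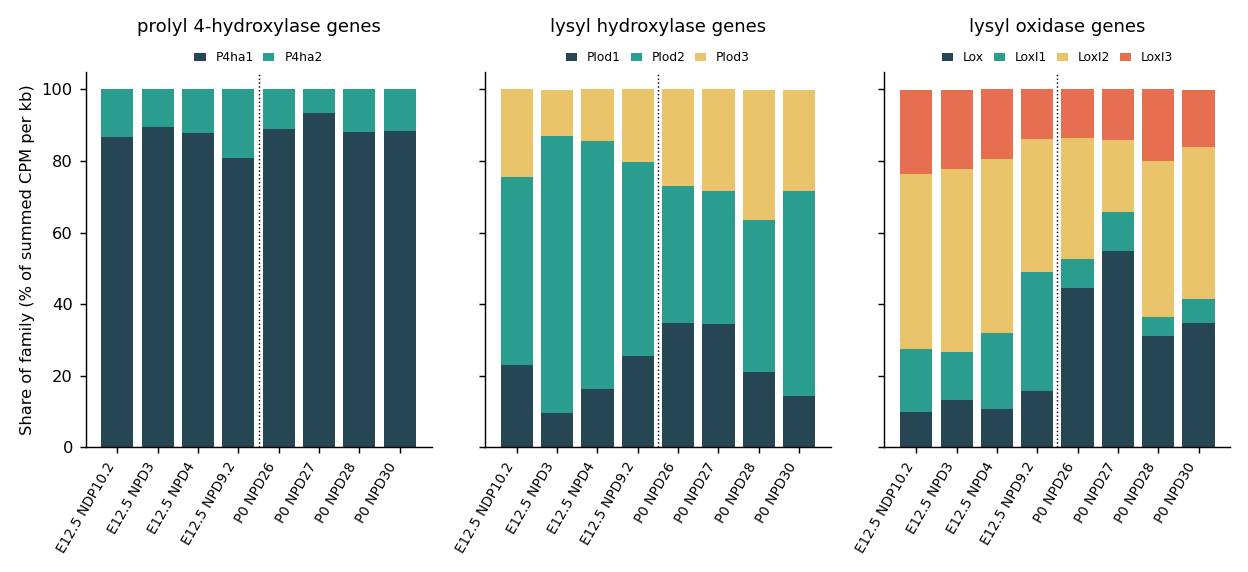
Share of each member in the summed CPM per kb of its family's members, in percent, in each litter. Panels show the prolyl 4-hydroxylase, lysyl hydroxylase and lysyl oxidase genes, and a dotted line parts E12.5 from P0. P4ha3 and Loxl4 are not members and are left out. The Lox share runs from 9.89% to 15.7% at E12.5 and from 31.1% to 54.8% at P0. P4ha1 stays between 81.0% and 93.5% of its pair with P4ha2 in all litters.

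The P0 litters were not alike. NPD30 was the highest P0 litter for 8 of the 10 members, all but Plod1 and Plod3, whereas 26.6% of all tested genes were highest there. NPD26 was the lowest P0 litter for 6 members and NPD27 for 3. At E12.5 NPD4 was the lowest litter for 7 members, against 29.7% of all tested genes, and NDP10.2 the highest for 5. NPD30 also had the highest summed notochord and NP markers, 32350 CPM against 8347 to 12850 CPM in the other P0 litters, and the lowest leukocyte markers. NPD4 had the lowest notochord and NP markers of E12.5, 2813 CPM against 3196 to 7149 CPM, and the highest neural markers, 1583 CPM against 82.4 to 138 CPM. The part of these other cells in the members' levels was not tested.

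**Figure D4:**
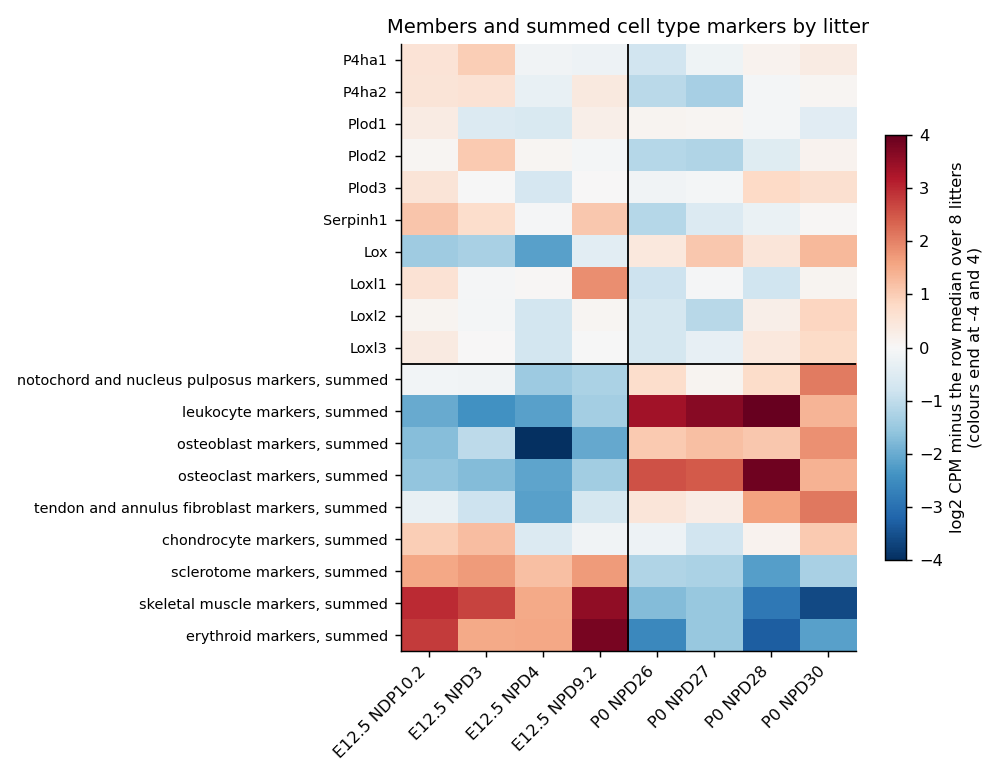
Log2 CPM of the 10 members and of summed marker lists in each litter, less the median of the row over the 8 litters, in colours that end at -4 and 4. Leukocyte markers are high in the P0 litters NPD26, NPD27 and NPD28 and lower in NPD30, where 8 members have their highest P0 value.

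Among 30 further genes that modify, export, trim or crosslink procollagen, 28 were tested and 6 passed, 4 as higher and 2 as lower at P0, with a median log2 fold change of 0.14. Of all tested genes 27.9% passed. In prolyl 3-hydroxylation 2 of 6 passed, in opposite directions. P3h3 had 100, 57.6, 38.8 and 60.7 CPM at E12.5 and 17.6, 20.5, 23.2 and 29.4 CPM at P0, with every P0 litter lower (log2 fold change -1.50, SE 0.31, adjusted p = 0.00461). P3h2 had 10.6, 10.3, 10.8 and 9.10 CPM at E12.5 and 10.7, 14.1, 28.5 and 38.5 CPM at P0 (1.17, SE 0.40, adjusted p = 0.0482). NPD26 lay inside the E12.5 range, and P3h2 lost its pass without any 1 of the E12.5 litters, NPD28 or NPD30, at 0.76 to 1.19 on the log2 scale. It also missed the threshold in 5 of 10 other alternatives, with adjusted p from 0.0520 to 0.215. P3h1, whose complex with Crtap and Ppib also folds procollagen, stood at -0.99 on the log2 scale (adjusted p = 0.0572).

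In propeptide removal 3 of the 6 tested genes passed. Bmp1, the protease that cleaves the C-propeptide and also activates the Lox precursor, had 162, 132, 115 and 159 CPM at E12.5 and 40.1, 58.0, 70.6 and 107 CPM at P0, lower in every P0 litter (log2 fold change -1.05, SE 0.30, adjusted p = 0.0231). It lost its pass without NDP10.2, NPD9.2, NPD26 or NPD27, the litters on which Serpinh1 also rested, at -1.02, -1.02, -0.85 and -0.96 on the log2 scale. Bmp1 and Lox thus had opposite signs. Its enhancers were higher at P0. Pcolce2 had 6.84, 4.10, 6.17 and 1.72 CPM at E12.5 and 11.5, 14.9, 16.6 and 35.9 CPM at P0 (2.05, SE 0.49, adjusted p = 0.00948), without overlap. Pcolce had 84.0, 50.3, 27.8 and 81.2 CPM at E12.5 and 80.8, 110, 150 and 232 CPM at P0 (1.24, SE 0.41, adjusted p = 0.0433), with NPD26 inside the E12.5 range. Pcolce lost its pass without any 1 of the E12.5 litters, NPD28 or NPD30, at 0.87 to 1.39 on the log2 scale.

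In procollagen export 1 of 6 passed. Mia2, which helps load bulky cargo at the exit sites of the endoplasmic reticulum, had 51.4, 83.5, 75.1 and 60.2 CPM at E12.5 and 130, 134, 161 and 88.8 CPM at P0, higher in every P0 litter (log2 fold change 0.93, SE 0.25, adjusted p = 0.0188). It lost its pass without NDP10.2 or NPD9.2, at 0.77 and 0.83. None of the 2 hydroxylysine glycosyltransferases, the 2 isomerases Fkbp10 and Fkbp14, the 2 further prolyl 4-hydroxylase genes or the 4 genes of crosslinking and its helpers passed. The uncalled genes with the lowest adjusted p after P3h1 were the glycosyltransferase Colgalt1 (0.79, adjusted p = 0.0647), the catalytic subunit P4ha3 (1.44, adjusted p = 0.0656), the endoplasmic reticulum channel Tmem38b (0.93, adjusted p = 0.0890) and Efemp2, which presents Lox to elastin (-0.80, adjusted p = 0.0902).

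Of the 9 fibrillar collagen genes, whose products these enzymes act on, 5 passed, 3 as higher and 2 as lower, where 27.9% of all tested genes passed. The type I genes Col1a1 (log2 fold change 3.21, adjusted p = 0.00402) and Col1a2 (2.51, adjusted p = 0.00188) were higher at P0, as was Col5a3 (2.19, adjusted p = 0.0162). Col3a1 and Col11a1 were lower, at -1.99 (adjusted p = 0.00514) and -1.78 (adjusted p = 0.0207) on the log2 scale. Col5a3 lost its pass without NPD3 (1.98), and Col11a1 lost it without NDP10.2, NPD3, NPD26 or NPD27, at -1.71 to -1.48. Col2a1, the collagen of cartilage and notochord sheath, averaged 3191 ± 1704 CPM and 2273 ± 1499 CPM (log2 fold change -0.49, adjusted p = 0.558). Of the elastic fibre genes, Fbn1 was lower (-1.55, adjusted p = 0.00451) and Eln, a Lox substrate, did not pass (1.50, adjusted p = 0.241).

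Each member was therefore also expressed against 1000 CPM of the 9 summed fibrillar collagen genes, which totalled 3327 to 10850 CPM at E12.5 and 6368 to 23160 CPM at P0. Serpinh1 then stood at 61.1, 64.9, 88.1 and 86.0 at E12.5 and 21.9, 16.2, 16.7 and 13.7 at P0, 75.1 ± 14.0 against 17.1 ± 3.45, a 4.38-fold difference with wide separation. Plod2 differed by 4.07-fold and Loxl1 by 4.31-fold. In all, 7 of 10 members, P4ha1, P4ha2, Plod2, Serpinh1, Loxl1, Loxl2 and Loxl3, lay lower in every P0 litter, against 19.3% of all tested genes, and the median gene had a mean 1.88-fold lower at P0 on this scale. Lox stood at 3.22 ± 1.44 and 7.30 ± 2.74, with overlap between NPD9.2 and NPD28. No test was run on this scale.

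The choice of collagen decided that count. Relative to Col2a1 alone, none of the 10 members lay lower in every P0 litter, against 3.02% of all tested genes. Lox lay higher in every P0 litter, at 8.04 ± 4.60 per 1000 CPM of Col2a1 at E12.5 and 59.1 ± 42.2 at P0. It did so in CPM as well, and the share of all tested genes that lay higher on the Col2a1 scale was not counted. Relative to Col1a1 and Col1a2, 9 members lay lower, but so did 71.7% of all tested genes. All 3 collagen scales were chosen after the data were seen. The type I collagen genes were higher at P0, as were the osteoblast markers, and the part of osteoblast RNA in these ratios was not tested.

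**Figure D5:**
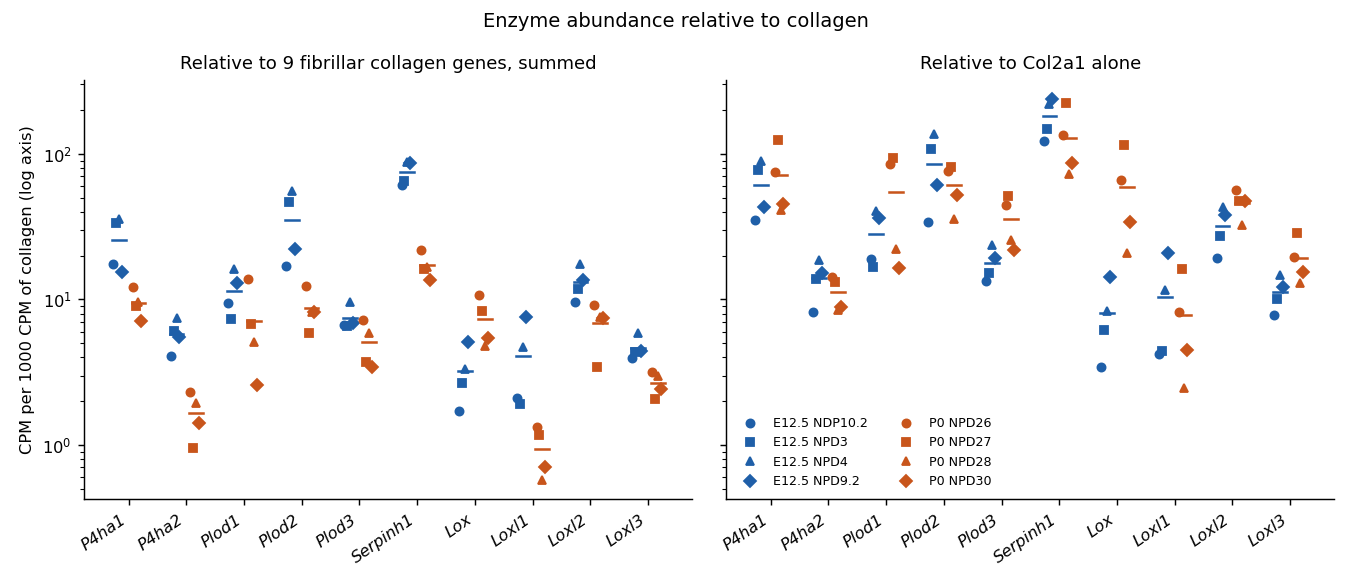
CPM of each member per 1000 CPM of the 9 summed fibrillar collagen genes (left) and of Col2a1 alone (right), in each litter, on a log axis; bars are stage means. Serpinh1 runs from 61.1 to 88.1 at E12.5 and from 13.7 to 21.9 at P0 on the left, and Lox is the member whose P0 litters all lie higher on the right. The share of all tested genes that lie higher on the right was not counted.

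The profile of each member over the 8 litters was matched to those of 12642 tested genes with a symbol and a mean log2 CPM of at least 2, by the root mean square difference of log2 CPM centred on each gene. This is a description over 8 samples that share the contrast of stage. Serpinh1 came closest to the receptor gene Fgfr1 (0.11) and to P3h1 (0.15), a partner in procollagen folding. Lox came closest to Pxdc1 (0.17) and Cavin2 (0.27), and the nearest other member stood at 1.05. Loxl2 came closest to Tgfb3 (0.14) and Nck2 (0.18), and Loxl1 to Shisa3 (0.23) and Trim10 (0.26). Plod2 had Kdelc1 (0.15) and Gm16185 (0.17), P4ha1 had Carmil1 (0.17) and the hexosamine pathway gene Gfpt1 (0.18), and P4ha2 had Zfp521 (0.14) and Kat6b (0.15). Plod3 had Itpkb (0.12) and Srebf1 (0.14), Plod1 had Babam1 (0.11) and Suds3 (0.14), and Loxl3 had the glycolytic gene Pfkl (0.15) and 1810055G02Rik (0.15). The closest pair of members was Plod3 and Loxl3, at 0.21. Even so, Loxl3 ranked only 24 among the genes nearest to Plod3, and Plod3 ranked 13 among those nearest to Loxl3.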

How the data were processed

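RNA from pooled litters was sequenced as total RNA with single-end reads of 100 bases. Reads were aligned by the authors to GRCm38.p3 with STAR 2.4.0j. The authors deposited the htseq-count output for Gencode M4, raw counts that had not been normalized. Their processing notes also name CASAVA 1.8.2, bcl2fastq, edgeR and the build mm9. The entries that name no gene were left out: reads on no gene were 22.7% to 29.5% of all tallied, ambiguous reads 7.07% to 17.5% and reads not uniquely placed 26.3% to 33.7%. Reads on genes numbered 4442775 to 7180221 per litter at E12.5 and 6371842 to 8904050 at P0, and 3 counts equal 0.337 to 0.675 CPM, a floor that covers counting error only.

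Stages were compared in R 4.3.3 with edgeR 4.0.16 (TMM, filterByExpr with a minimum count of 10 and total of 15, robust quasi-likelihood F-test, Benjamini-Hochberg adjustment over 15467 genes), a method tested on simulated data. CPM uses TMM library sizes, and log2 CPM adds a prior count of 2. Ratios of counts between members were compared by two-sided exact permutation tests. Each litter is a separate pool, so the p-values measure the spread between litters. Positions, exon lengths and symbols come from Gencode M21 on GRCm38, with 42462 identifiers matched, and promoters from RefSeq, with 5 of the 10 members matched. Alternatives used DESeq2 1.42.0, limma 3.58.1 (voom), other size factors, filters and dispersions, downsampled counts and litters left out. The members and lists were chosen with earlier results of these data known. Genes named are the members, every passing gene of the pathway list with up to 5 others by adjusted p, passing fibrillar collagens and the 2 nearest profiles of each member. Elastic fibre, hypoxia target and marker genes, Col2a1, P4hb and Loxl4 were named after their values were seen, and the motifs and the collagen scales were also chosen then. There were no shared replicate numbers between the stages. Immunohistochemistry was not analysed here.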

Additional observations from a re-analysis of the deposited data

Results flagged for a closer look

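In 32 groups of 4 litters, 2 values stood apart from their group by Dixon's test, where chance gives about 1 in 20. At E12.5 Plod2 had a log2 CPM of 8.48 in NPD3, with a gap of 0.844 of the group's range to the next litter. At P0 the log2 ratio of P4ha2 to P4ha1 counts was -3.25 in NPD27, with a gap of 0.902 of the range.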

How the results depend on the processing

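The main test called 2 members. Without a filter on low counts it called 4, without the E12.5 litters NDP10.2 and NPD9.2 it called 1, and with each litter left out in turn 1 to 4, with 1 left without NDP10.2, NPD9.2, NPD26 or NPD27, where Serpinh1 lost its pass, and 4 without NPD30. Lox passed in all 8 fits that left out 1 litter and in the 10 other alternatives, and Serpinh1 in 4 and 9. Of the pathway genes, 6 passed in the main test and 3 to 9 with each litter left out, 3 without NDP10.2 or NPD9.2 and 9 without NPD30. DESeq2's Wald test called 9 and the fit with no filter 9. The sign of Plod1 changed with DESeq2 size factors (-0.0007), upper quartile factors (-0.13) and downsampled counts (-0.0071), and with litters left out it ranged from -0.15 to 0.14. Loxl2 was -0.032 with limma-voom and -0.0073 with upper quartile factors, and ranged from -0.34 to 0.38 with litters left out. Loxl3 ranged from -0.11 to 0.42. The causes were not tested. Upper quartile factors moved the median of all genes to -0.11 and no filter to 0.45. Relative to Col2a1 alone, 0 members lay lower in every P0 litter, and relative to Col1a1 and Col1a2 9, against 7 for the summed collagens. No alternative changed the direction of a ratio between members. No paired analysis was possible because the stages share no replicate numbers. At these depths a gene under 0.337 to 0.675 CPM cannot be told from 0, and all members lay above that.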
